A study of Mus musculus with 6 samples.

Results

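The mRNAs of the cytosolic ribosomal proteins were followed in endothelial cells sorted from mouse lymph nodes (LN), on 6 expression arrays whose values are log2 signals per probe set, the set of short probes designed against a transcript. Members were chosen by gene symbol alone, as probe sets whose only gene in the platform annotation is named Rpl or Rps with a number, or is Rplp0, Rplp1, Rplp2 or Rpsa, with the kinases of ribosomal protein S6 left out. This gave 46 genes of the 18193 with a probe set of their own, 24 of the large subunit and 22 of the small subunit, on 100 of 45037 probe sets. Where a gene had several probe sets, the brightest over the 6 arrays was read. RefSeq lists 81 protein-coding mouse genes with such symbols. A further 28 of them, with Rplp1, were measured only on probe sets shared with other genes, and 8 are not analysed here.

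A cytosolic ribosome joins a small subunit, which reads the mRNA, to a large subunit, which links the amino acids and feeds the chain into an exit tunnel. Each protein is needed in about the same number of copies per ribosome, and growth signals through the kinase complex mTORC1 are known to act on the translation of their mRNAs through a run of pyrimidines at the 5′ end. Ribosomal protein mRNAs are among the most abundant of most cells and rise and fall with growth, and many members also have processed pseudogenes of near-identical sequence.

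The cells came from pooled skin-draining and mesenteric LN of C57BL/6 mice at 6 weeks of age, were depleted of CD45+ leukocytes and sorted by gp38 (podoplanin, a surface protein of lymphatic endothelium) and CD31 (a surface protein of all endothelium). The 3 double-positive arrays hold cells sorted with both gp38 and CD31, and the 3 CD31+ arrays cells sorted with CD31. In the labels the double-positive arrays also carry the word BEC and the CD31+ arrays the word LEC, which is the opposite of the gates the study states, where LEC (lymphatic endothelial cells) are gp38+ CD31+ and BEC (blood endothelial cells) are gp38- CD31+. Arrays are named by their gate word here, and by the cell type word every sign below would turn round. Of 12 lymphatic endothelial markers 9 were called higher and none lower in the double-positive arrays by limma at 5% FDR, and of 12 blood endothelial markers none was called higher and 6 lower. Prox1, the lymphatic master regulator, did not pass, at 7.50 ± 1.48 on the double-positive arrays and 7.43 ± 0.568 on the CD31+ arrays (SD, n = 3 each), and the probe set of Pecam1 (CD31 itself) stayed at or near the floor, the lowest level the normalization gives, on all 6 arrays. Pecam1 is 1 of 6 pan-endothelial markers, of which 3 had a higher and 3 a lower mean on the double-positive arrays. With the filter described below 4 of the 6 passed, and 1 was called higher and 0 lower. The summed level of the 6 lay between 11.38 and 11.82 (log2) on the double-positive arrays and between 8.54 and 9.40 on the CD31+ arrays. Ptprc, which encodes CD45, had log2 values of 2.53, 2.74 and 2.74 on the double-positive arrays and 4.37, 2.77 and 4.03 on the CD31+ arrays. None of 4 B cell and 6 myeloid markers reached the filter described below, and 1 of 5 T cell markers did. This was Cd8a, named after its values were seen, which was called lower with the filter by limma, with a difference of -1.07, while Cd3d, Cd3e and Cd3g lay at or near the floor on all 6 arrays. Of 7 fibroblast markers 4 passed the filter, and with it Col1a2 and Col3a1 were called lower, with differences of -3.11 and -3.15, and Thy1 higher, with 3.03. The summed level of the 7 lay between 7.30 and 7.76 (log2) on the double-positive arrays and between 7.46 and 8.99 on the CD31+ arrays. Of 6 pericyte and smooth muscle markers 3 passed, and Acta2 and Pdgfrb were called lower, with differences of -2.34 and -2.92. Their summed level lay between 7.53 and 8.02 on the double-positive arrays and between 7.28 and 9.71 on the CD31+ arrays. CD31+ replicate 3 was the lowest CD31+ array in both sums. Of 4 markers of proliferating cells 1 passed the filter and none was called, with a summed level between 7.03 and 7.20 on the double-positive arrays and between 6.59 and 6.88 on the CD31+ arrays. The part of other cells in the values that follow was not tested, and in bulk RNA more cells of a type cannot be told apart from more of an RNA per cell.

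Ribosomal protein mRNAs read higher on the double-positive arrays for nearly every gene that was measured above the dim range. The mean was higher in 42 of the 46 genes, and the median difference, double positive minus CD31+, was 0.95 on the log2 scale. No gene was called in either direction by limma over all probe sets at 5% FDR, where 0.502% of probe sets were called higher and 0.113% lower, and the smallest adjusted p of a member was 0.138 for Rps3. At an unadjusted p under 0.05 the same fit placed 8 of 46 genes (17.4%) higher and 0 lower, against 7.64% and 1.32% of all probe sets. These shares are not matched to the members in brightness, as 37.4% of all probe sets lay within 0.1 of the floor on all 6 arrays. A filter that asked for log2 values of 5 or more on at least 3 arrays left 6088 probe sets and 38 of the 46 genes. A probe set can pass it through the group where it is high. The same 38 genes have a mean of 5 or more over the 6 arrays, but that group can raise the mean as well. Of the 38 genes 1, Rpl14, had a value under 5 on a CD31+ array and 0 had one on a double-positive array. The shares over all probe sets kept are open to the same selection, as 14.2% of probe sets reached 5 on the double-positive arrays and 11.9% on the CD31+ arrays (means of 3 arrays). With it limma called 11 of the 38 genes higher (28.9%) and 0 lower, against 32.9% and 3.81% of all probe sets kept. The members' share was thus near that of all bright probe sets. With the replicate number as a block as well, 25 of 38 (65.8%) were called higher and 0 lower, against 47.4% and 4.78%.

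**Figure D1:**
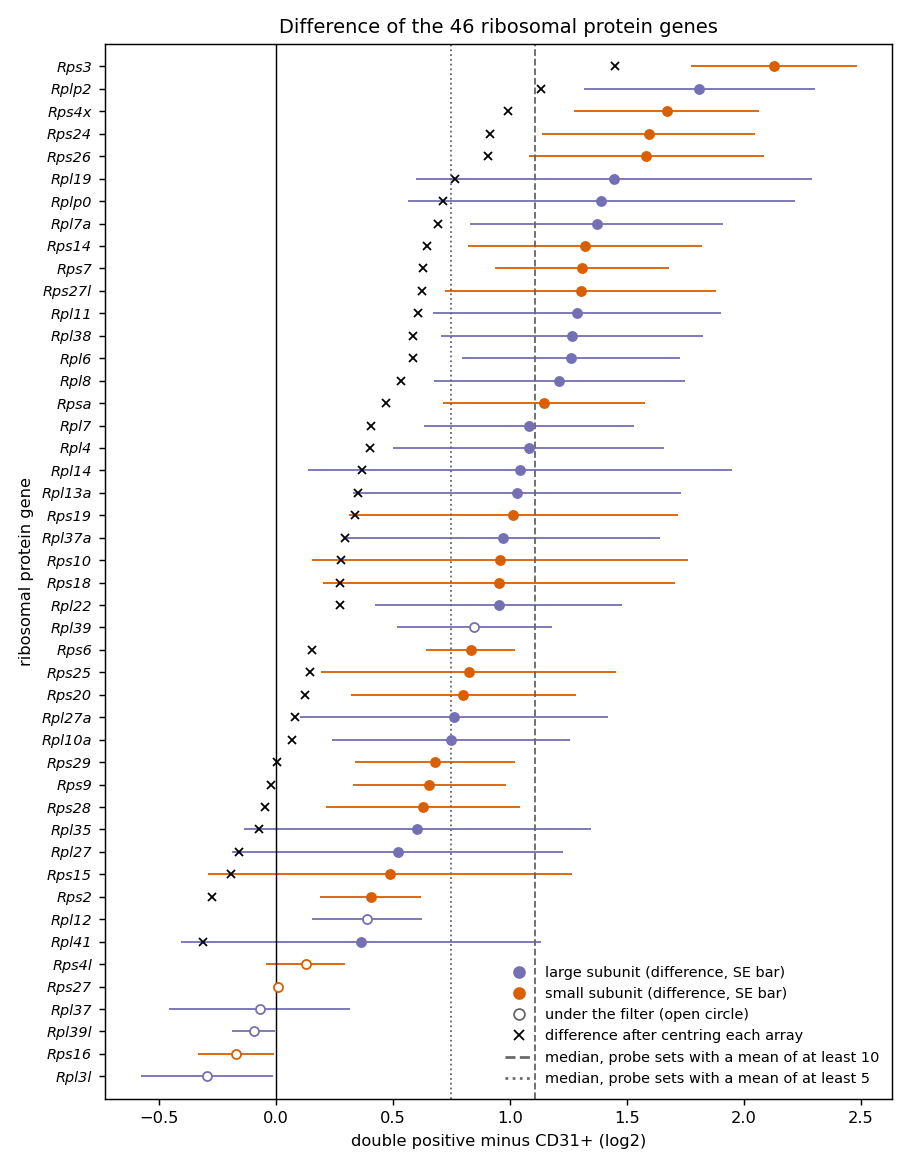
Difference of each of the 46 genes between double-positive and CD31+ arrays on the log2 scale (circles, with the standard error of the limma fit as bars), coloured by subunit, with open circles for the 8 genes under the filter and crosses for the difference after each array was centred. Dashed and dotted lines mark the median difference of very bright (mean of 10 or more, 1.11) and of bright probe sets (mean of 5 or more, 0.75), and the 38 genes with filled circles lie between 0.36 and 2.13.

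The size of the difference has to be read against the brightness of the arrays. Among the 38 genes the difference ranged from 0.36 for Rpl41 to 2.13 for Rps3, with a median of 1.04. The 5764 bright probe sets, with means of 5 or more, had a median of 0.75, and the 545 very bright ones, with means of 10 or more, had 1.11. On the array level the median of the 38 genes was 11.89 ± 0.276 on the double-positive arrays and 10.71 ± 0.860 on the CD31+ arrays (SD, n = 3 each). The median of the very bright probe sets was 11.74 ± 0.104 on the double-positive arrays and 10.60 ± 0.571 on the CD31+ arrays. The ribosomal proteins thus stood 0.150 ± 0.315 above the very bright probe sets on the double-positive arrays and 0.107 ± 0.347 above them on the CD31+ arrays, a gap that is smaller than the spread between arrays.

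Other measures of the arrays moved with the same groups. The median of 18 hybridization control probe sets, whose RNA is added in the laboratory, was 10.61 ± 0.510 on the double-positive arrays and 11.92 ± 0.309 on the CD31+ arrays. The 3′ minus 5′ control signal of Actb was 7.71, 7.58 and 7.83 on the double-positive arrays and 6.90, 7.38 and 6.07 on the CD31+ arrays. Their part in the differences was not tested. Each array was then centred on its median over the bright probe sets, which takes 0.68 from every difference. After centring the median of the 38 genes was 0.36, with 31 genes above 0 and 7 below. That of the very bright probe sets was 0.43 and that of the bright ones 0.07. Quantile normalization gave a median of 0.20, with 29 genes above 0 and 9 below. The very bright probe sets then had a median of 0.13 and the bright ones 0.02. With the filter and the centring limma called 3 genes higher (7.89%), Rps3, Rps4x and Rplp2, and 0 lower, against 12% and 9.18% of all probe sets kept. With the filter and quantile normalization Rps3 alone was called, against 10.6% higher and 9.07% lower. With the filter, the centring and the block 5 genes were called higher, against 18.2%. Centring without the filter gave 14 of the 46 genes higher and 6 lower, against 4.32% and 76.8% of all probe sets. That fit also takes 0.68 from probe sets that lie at the floor on all 6 arrays. Its shares over all probe sets are therefore no background for the members.

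**Figure D2:**
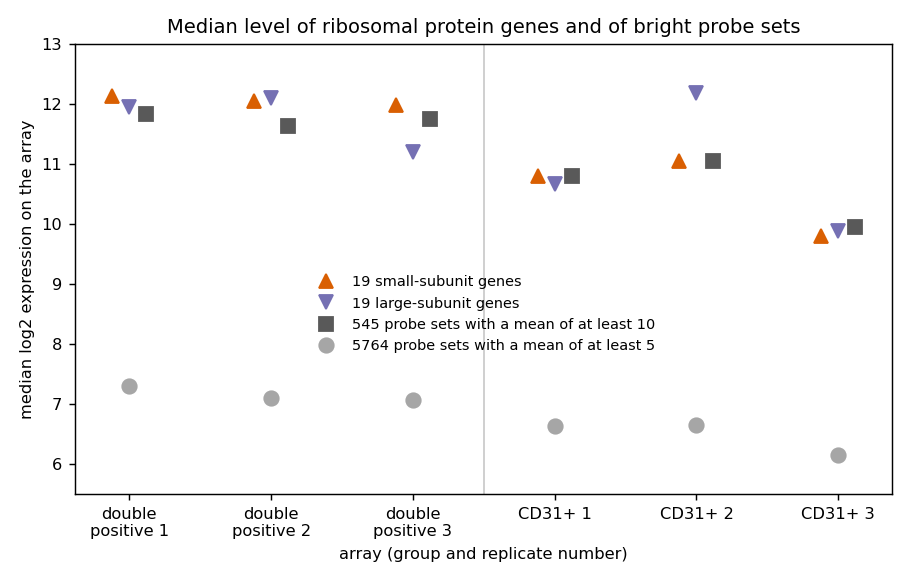
Median log2 value on each array of the 19 small-subunit and 19 large-subunit genes that passed the filter, and of all very bright (mean of 10 or more) and bright probe sets (mean of 5 or more). The small-subunit median lies between 11.99 and 12.13 on the double-positive arrays and between 9.80 and 11.05 on the CD31+ arrays, and the very bright probe sets run close to it. The large-subunit median overlaps between the groups, at 11.20 to 12.10 on the double-positive arrays and 9.88 to 12.18 on the CD31+ arrays.

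The arrays of 1 group differed more among the CD31+ arrays than among the double-positive arrays. The median SD over 3 arrays of the 38 genes was 0.282 on the double-positive arrays and 0.879 on the CD31+ arrays, against 0.325 and 0.455 for all probe sets that passed the filter. Of the CD31+ arrays, replicate 3 was the lowest in 36 of 38 genes and replicate 2 the highest in 35 of 38. Over all probe sets kept, replicate 3 was lowest of the CD31+ arrays in 66.8% and replicate 2 highest in 46.7%. Of the double-positive arrays, replicate 3 was the lowest in 32 of 38 genes, against 40.2% of all probe sets kept. The ribosomal protein mRNAs therefore moved together from array to array, and the CD31+ group held both a high and a low array.

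The replicate numbers pair the arrays, and the difference was not alike in the 3 pairs. In pair 1 all 38 genes were higher in the double-positive array, with a median difference of 1.35. Of all probe sets kept 82.2% were higher in pair 1, with a median of 0.74. In pair 2 the median was 0.19, with 28 genes higher (73.7%) and 10 lower in the double-positive array. This share was near the 71.3% of all probe sets kept, whose median in pair 2 was 0.44. In pair 3 the median was 1.68 and 37 of 38 genes were higher, against a median of 1.06 and 86.4% of all probe sets kept. Pair 2 gave the smallest of the 3 differences in 36 of 38 genes (94.7%), against 57.6% of all probe sets kept. In all 3 pairs 28 genes were higher (73.7%), against 65% of all probe sets kept. All 3 double-positive arrays lay above all 3 CD31+ arrays in 14 of 38 genes (36.8%), against 47.3% of all probe sets kept, and below them in 0 genes, against 5.65%. Of the 14, 10 were among the 19 genes of the small subunit and 4 among the 19 of the large subunit. This contrast of the subunits was not tested, and their median differences were 0.96 for the small and 1.08 for the large subunit. The medians on each array gave the other order, with group means that differed by 1.51 for the small and 0.85 for the large subunit. Without CD31+ replicate 2 the median over the 46 genes was 1.42, and without CD31+ replicate 3 it was 0.45. With the filter and without CD31+ replicate 2, limma called 26 of the 38 genes higher, against 37.5% of all probe sets kept. Without CD31+ replicate 1 it called 4, against 27.4%, and without CD31+ replicate 3 again 4, against 22.6%. Without double-positive replicate 1, 2 or 3 it called 1, 3 and 6 genes, against 14.2%, 23.4% and 19.5%. Without both arrays numbered 2 it called 18, against 26.6%.

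**Figure D3:**
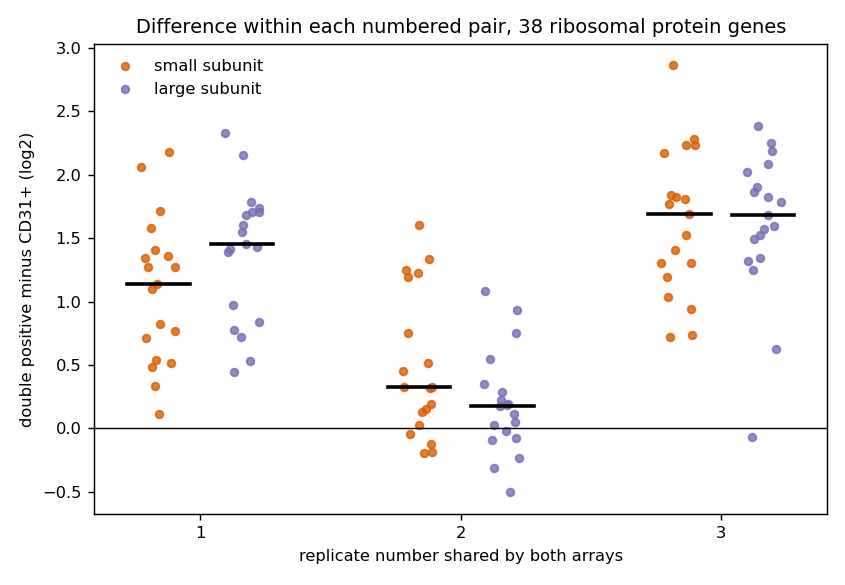
Difference between the double-positive and the CD31+ array of the same replicate number (log2) for the 38 genes that passed the filter, 1 point per gene, with the median of each subunit as a bar. The points of pair 2 lie around 0.19, and those of pairs 1 and 3 around 1.35 and 1.68.

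Of the small-subunit proteins, Rps3 had the widest difference, and with the filter it was called on the deposited, the centred and the quantile-normalized values. Rps3, which lines the channel where the mRNA enters the small subunit, had log2 values of 13.95, 13.57 and 13.89 on the double-positive arrays and 11.78, 12.23 and 11.03 on the CD31+ arrays. All double-positive arrays lay more than 1 above the highest CD31+ array. The difference was 2.13 (standard error 0.35), which is 4.37-fold, with an adjusted p of 0.138 from limma over all probe sets and 0.0026 with the filter. After centring it was 1.45 and after quantile normalization 1.32, with adjusted p of 0.00418 and 0.00539 from limma with the filter. A further probe set of Rps3 gave 8.43, 8.13 and 7.76 on the double-positive arrays and 6.09, 6.66 and 4.87 on the CD31+ arrays, differing by 2.23 in the same direction (adjusted p = 0.00688 with the filter, limma).

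Rps4x, an X-encoded protein of the small subunit, had 12.38, 12.24 and 11.99 on the double-positive arrays, against 10.79, 11.05 and 9.75 on the CD31+ arrays. The groups did not overlap, and the lowest array was CD31+ replicate 3. The difference was 1.67 (standard error 0.40; limma adjusted p = 0.257, and 0.0105 with the filter). Rps24, which is mutated in some families with Diamond-Blackfan anaemia, read 12.03, 12.43 and 11.40 on the double-positive arrays and 10.62, 10.83 and 9.64 on the CD31+ arrays. Rps26, a protein near the mRNA exit, read 11.40, 10.98 and 10.93 on the double-positive arrays and 9.34, 10.47 and 8.76 on the CD31+ arrays. At their brightest probe sets both genes kept the groups apart, with differences of 1.59 and 1.58 and limma adjusted p of 0.0176 and 0.0225 with the filter. After centring, the adjusted p with the filter was 0.0735 for Rps24 and 0.0909 for Rps26. Dimmer probe sets of Rps24 that passed the filter differed by 1.11, 1.43 and 1.30, with overlapping groups. None of these was called (limma adjusted p = 0.111, 0.0607 and 0.106 with the filter).

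At their brightest probe sets Rps7 and Rpsa also kept the groups apart, with smaller differences. Rps7, which takes part in processing of the small-subunit rRNA, had 12.89, 12.98 and 12.73 on the double-positive arrays and 11.55, 12.23 and 10.91 on the CD31+ arrays, differing by 1.31 (limma adjusted p = 0.0238 with the filter). Rpsa, also known as a laminin receptor, had 12.84, 12.61 and 12.59 on the double-positive arrays and 11.57, 12.28 and 10.75 on the CD31+ arrays, differing by 1.15 (limma adjusted p = 0.0492 with the filter). In both genes the double-positive values lay closer together than the CD31+ values, of which replicate 2 was the highest. A dimmer probe set of Rps7 differed by 0.55 with overlapping groups and was not called (limma adjusted p = 0.204 with the filter). Rps14, named after its value was seen because it was 1 of the 11 calls, differed by 1.32 (limma adjusted p = 0.0411 with the filter).

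Rps6, the substrate of the S6 kinases downstream of mTORC1, was measured on a dimmer probe set. Its values were 7.86, 7.34 and 7.62 on the double-positive arrays and 6.72, 7.02 and 6.59 on the CD31+ arrays. The groups did not overlap, and the spread within them was alike, at 0.259 on the double-positive arrays and 0.223 on the CD31+ arrays (SD, n = 3 each). The difference of 0.83 (standard error 0.19, 1.78-fold) had an adjusted p of 0.241 from limma over all probe sets and 0.0494 with the filter. After centring it was 0.15 (adjusted p = 0.721 with the filter, limma).

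A further 4 bright genes of the small subunit did not pass with the filter at their brightest probe sets. Rps29, Rps20, Rps28 and Rps18 had differences of 0.68, 0.80, 0.63 and 0.95, with adjusted p between 0.145 and 0.21 from limma with the filter. Their double-positive means lay between 13.37 and 14.60 and their CD31+ means between 12.42 and 13.92. For Rps29, a zinc-binding protein in the head of the small subunit, the values were 14.69, 14.49 and 14.63 on the double-positive arrays and 14.21, 14.33 and 13.22 on the CD31+ arrays, which did not overlap. After centring its difference was 0.0033. Dimmer probe sets of Rps29 also kept the groups apart, with differences of 1.66 and 1.33. These passed with the filter (limma adjusted p = 0.0255 and 0.0382), and after centring the differences were 0.98 and 0.65. No further probe set of Rps20, Rps28 or Rps18 was called with the filter. At the brightest probe sets the groups were apart for Rps20 as well and overlapped for Rps28 and Rps18.

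Among the large-subunit proteins the stalk protein Rplp2 had the widest difference. The stalk, built on Rplp0 with copies of Rplp1 and Rplp2, recruits the elongation factors to the ribosome. Rplp2 had 11.45, 11.28 and 10.76 on the double-positive arrays and 9.30, 10.19 and 8.57 on the CD31+ arrays. The groups did not overlap, and the difference was 1.81 (standard error 0.49, 3.50-fold; limma adjusted p = 0.337, and 0.013 with the filter). Centring left 1.13 (adjusted p = 0.037 with the filter, limma). Rplp0 had 9.66, 9.95 and 9.40 on the double-positive arrays and 7.33, 9.97 and 7.54 on the CD31+ arrays. Here CD31+ replicate 2 lay above all 3 double-positive arrays while the other CD31+ arrays lay well below, and the difference of 1.39 (standard error 0.83) did not pass with the filter (adjusted p = 0.107, limma) and passed with the block as well (adjusted p = 0.0156, limma). Rplp1 had no probe set of its own among those used.

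Rpl6, a large-subunit protein, had 11.48, 11.21 and 10.88 on the double-positive arrays and 10.02, 10.66 and 9.09 on the CD31+ arrays, which did not overlap. Its difference was 1.26 (standard error 0.47; limma adjusted p = 0.0414 with the filter). Rpl7a, named after its value was seen as the last of the 11 calls, differed by 1.37 (limma adjusted p = 0.0435 with the filter), and its groups overlapped. Rpl35, which sits at the mouth of the exit tunnel, had 13.63, 13.98 and 13.38 on the double-positive arrays and 13.19, 14.29 and 11.70 on the CD31+ arrays. CD31+ replicate 2 was the highest and CD31+ replicate 3 the lowest of the 6, and the difference of 0.60 (standard error 0.74) did not pass (limma adjusted p = 0.41 with the filter).

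**Figure D4:**
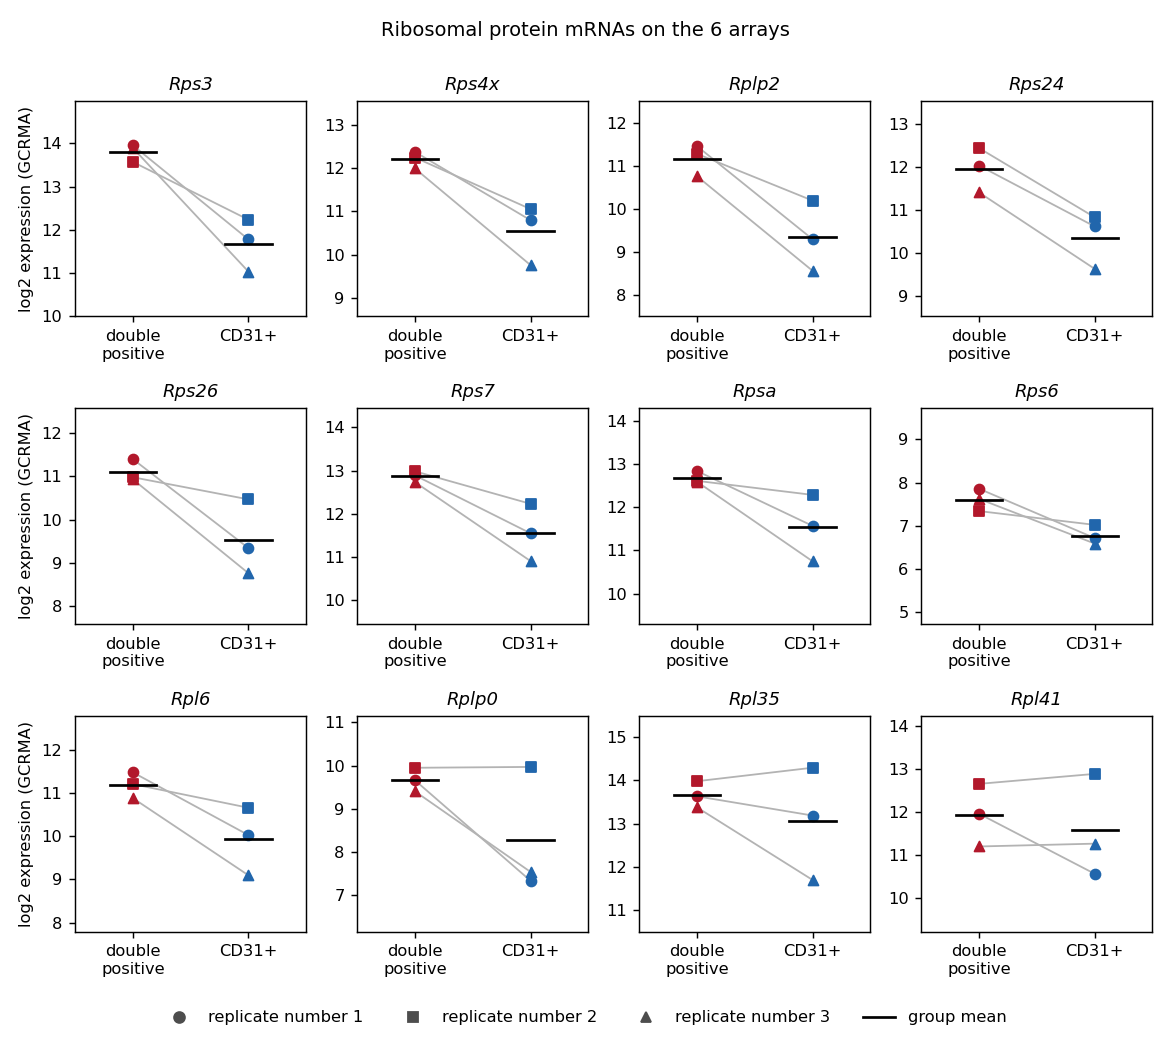
Log2 values of 12 ribosomal protein genes on the 6 arrays, double-positive arrays left and CD31+ arrays right in each panel, with lines joining arrays of the same replicate number and black bars for group means; every panel spans the same range of log2 units. Rps3, Rps4x, Rplp2 and Rps24 keep the groups apart, while CD31+ replicate 2 reaches the double-positive values in Rplp0, Rpl35 and Rpl41.

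Rpl41, a very short basic protein, differed least among the 38 genes. At its brightest probe set it read 11.96, 12.65 and 11.20 on the double-positive arrays and 10.57, 12.88 and 11.27 on the CD31+ arrays, differing by 0.36 (standard error 0.77; limma adjusted p = 0.633 with the filter). At 2 dimmer probe sets of the same gene the direction was the opposite. One read 6.99, 6.33 and 6.78 on the double-positive arrays and 8.41, 7.69 and 7.20 on the CD31+ arrays, differing by -1.06. The other read 5.67, 4.90 and 5.59 on the double-positive arrays and 7.52, 6.57 and 6.14 on the CD31+ arrays, differing by -1.36. All double-positive arrays lay below all CD31+ arrays on both. With the filter, limma gave adjusted p of 0.0507 and 0.0306, and after centring 0.00207 and 0.00162. These were the only probe sets of any member that passed the filter with a lower double-positive mean, and which transcript each probe set of Rpl41 reads was not tested.

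The probe sets of the other genes mostly ran in parallel. Of 54 further probe sets, 37 in 19 genes passed the filter, 35 with a higher and 2 with a lower mean on the double-positive arrays. Their median distance from the difference of the brightest probe set was 0.30, and the 2 that lay more than 1 away were those of Rpl41. The 17 others did not reach the filter, and those of Rps18, Rps20, Rps24, Rps4x and Rpsa had differences between -0.18 and 0.05. Of the 46 brightest probe sets 15 carry the suffix that marks probes matching other sequences, so reads of pseudogenes or paralogs cannot be separated from those of the gene. The 93 shared probe sets that hold a ribosomal protein gene and passed the filter had a median difference of 1.17, of which 90 were higher and 3 lower on the double-positive arrays.

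**Figure D5:**
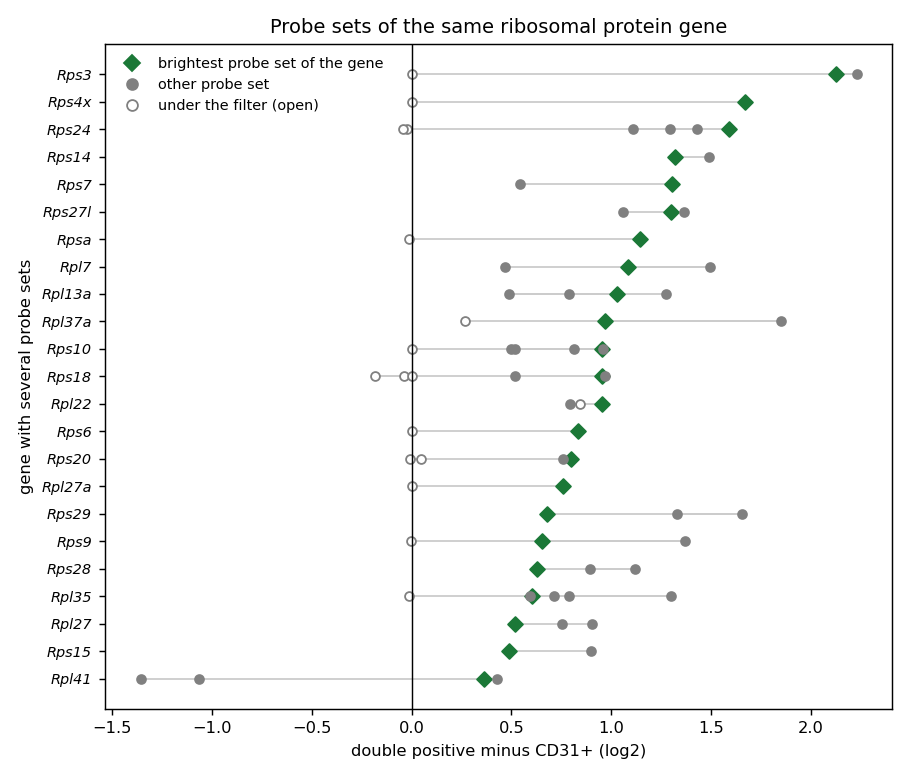
Difference between double-positive and CD31+ arrays (log2) at every probe set of the 23 genes that have several, with the brightest as a diamond and probe sets under the filter as open circles. Rpl41 spans 0.43 to -1.36, whereas the filled points of the other genes lie above 0.

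The low end was filled by dim members, while the paralog Rps27l lay above the median of the members. Rps27l, a paralog of Rps27 known as a p53 target, read 8.18, 8.74 and 7.29 on the double-positive arrays and 6.83, 7.49 and 5.99 on the CD31+ arrays, with overlapping groups. The difference of 1.30 did not pass with the filter (adjusted p = 0.0603, limma) and passed with the block as well (adjusted p = 0.00347, limma). The probe set of Rps27 itself lay at the floor, between 2.40 and 2.42 on all 6 arrays, so its difference cannot be read. Rpl3l, the muscle paralog of Rpl3, and Rpl39l, the testis paralog of Rpl39, lay between 2.40 and 3.57. So did Rps16, a small-subunit protein, and Rps4l, which RefSeq lists as a transcribed pseudogene. Rpl39, a protein of the exit tunnel, was just under the filter at 4.91, 4.97 and 4.56 on the double-positive arrays and 3.92, 4.54 and 3.43 on the CD31+ arrays, and its groups did not overlap, with a difference of 0.85 (adjusted p = 0.595, limma over all probe sets). Rpl37, a zinc-binding large-subunit protein, had a difference of -0.07 and its groups overlapped. A probe set at the floor says nothing about whether the gene is expressed.

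The start of the gene was also read for the run of pyrimidines that is known to mark these mRNAs. The run is known to act on translation, which the arrays do not measure, and its part in the mRNA levels was not tested. RefSeq promoter records (build GRCm38.p6) matched 40 of the 46 genes by gene ID. A C followed by at least 5 further C or T letters on the gene's own strand, overlapping the stretch from 10 bases before to 30 bases after the recorded start, was found in 29 of the 40 (72.5%), against 33.7% of all 27025 genes with a record. Of the 11 genes called with the filter 10 had a record and 8 held such a run, and their windows of 30 bases are shown with the run in capitals, together with Rpl35, which held a run of 18 letters and was not called.
Rplp2: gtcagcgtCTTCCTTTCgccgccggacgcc
Rps24: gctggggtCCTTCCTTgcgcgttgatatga
Rps26: cgccggatCCTCTTTCgagtcttggctcca
Rps7: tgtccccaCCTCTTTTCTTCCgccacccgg
Rps6: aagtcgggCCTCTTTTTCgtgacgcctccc
Rpsa: ccgcccgtCCTTTCgcgctacccggggacg
Rpl6: cttggtcaCCTCCCgtcattgcttatagac
Rpl7a: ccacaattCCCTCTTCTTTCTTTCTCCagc
Rpl35: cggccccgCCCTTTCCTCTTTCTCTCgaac
They lie at chr7:141447639-141447668 (Rplp2, plus strand), chr14:24490668-24490697 (Rps24, plus), chr10:128626481-128626510 (Rps26, minus), chr12:28635910-28635939 (Rps7, minus), chr4:86857347-86857376 (Rps6, minus), chr9:120127779-120127808 (Rpsa, plus), chr5:121204484-121204513 (Rpl6, plus), chr2:26910787-26910816 (Rpl7a, plus) and chr2:39005117-39005146 (Rpl35, minus). Counted in bases from the recorded start, the runs began at -4 (Rplp2), -2 (Rps24), 5 (Rps26), 23 (Rps7) and -1 (Rps6). Those of Rpsa, Rpl6, Rpl7a and Rpl35 began at 22, -9, -12 and -7. The run of Rpl6, of 6 letters, ended before the recorded start, and those of Rps7 and Rpsa began well after it. Not every run shown therefore lies at the 5′ end of the recorded mRNA. The counts above hold runs anywhere in the stretch searched, not only runs at the 5′ end. Rps3 and Rps4x had a record without such a run. The 24 genes that passed the filter and held a run had a median difference of 1.04, and the 9 without one a median of 1.01. A run of letters is a description of the record and not a measured start of transcription.

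Other genes of the translation machinery were read from lists at their brightest probe sets, as counts and medians beside the members. Over all probe sets limma called none of them in either direction. At an unadjusted p under 0.05 it placed higher 12 of 31 initiation, 2 of 12 elongation and 6 of 45 assembly factor genes, 1 of 19 genes of RNA polymerase I and rRNA transcription and 5 of 24 of the mTORC1 and S6 kinase pathway, and lower 1 assembly factor (Rpf1) and 1 gene of that pathway (Deptor), against 7.64% higher and 1.32% lower of all probe sets. The shares of all probe sets include those near the floor. Calls with the filter are to be read against 32.9% higher and 3.81% lower of all probe sets kept. Those with the filter and the centring are to be read against 12% and 9.18%. A gene can pass the filter through the group where it is high, so medians over the genes that passed can lie above those of whole lists. Over whole lists the medians were 0.79 for initiation, 0.47 for elongation and 0.37 for assembly factors, and 0.41 for the mTORC1 and S6 kinase pathway. Of 4 ribosomal proteins with other symbols that were measured, Rps3a1, a small-subunit protein, had 12.31, 12.42 and 12.08 on the double-positive arrays and 10.71, 10.53 and 9.56 on the CD31+ arrays, differing by 2.00 (adjusted p = 0.00354 with the filter, limma). Fau, whose product is cut to give a small-subunit protein, differed by 0.46 and did not pass. Rpl22l1, the paralog of Rpl22, kept the groups apart with a difference of 1.08, which did not pass with the filter (adjusted p = 0.0655, limma) and passed with the block as well (adjusted p = 0.00996, limma). Of 31 initiation factor genes 24 passed the filter with a median difference of 1.06, and 10 were called higher and 0 lower, against 3 higher with the centring as well. Eif3c, a subunit of the scaffold that loads the small subunit, had 11.74, 11.53 and 11.77 on the double-positive arrays and 9.43, 10.03 and 8.78 on the CD31+ arrays, differing by 2.26 (adjusted p = 0.00185 with the filter, limma). Eif3l and Eif5 were also called, with differences of 1.22 and 0.92, of which that of Eif5 turned to -0.19 after quantile normalization. Of 12 elongation factor genes 7 passed the filter with a median of 0.90, and Eef1a1, which brings aminoacyl-tRNA to the ribosome, was the 1 called, with a difference of 1.11, and none was called with the centring as well.

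Genes of ribosome assembly and of its growth signals were called in part, and 1 gene of those for its supply of rRNA. Of 45 assembly factor genes 18 passed the filter with a median of 0.70, and 5 were called higher and 0 lower, against 1 higher with the centring as well, with Npm1, an abundant nucleolar chaperone, at a difference of 1.80 (adjusted p = 0.0032 with the filter, limma). Of 19 genes of RNA polymerase I and rRNA transcription 9 had a higher mean on the double-positive arrays. With the filter 6 of the 19 passed, with a median of 0.72, and 1 was called. This was Myc, a transcription factor that drives ribosome production, which had 8.40, 8.47 and 7.12 on the double-positive arrays and 6.03, 5.20 and 4.84 on the CD31+ arrays. Its difference was 2.64 (adjusted p = 0.00301 with the filter, limma), and 1.96 after centring. No polymerase gene of this list was called, and Polr1d differed by 1.04 (adjusted p = 0.0634 with the filter, limma). Of 24 genes of the mTORC1 and S6 kinase pathway 11 passed the filter with a median of 0.97, and 2 were called higher and 1 lower, against 1 higher and 1 lower with the centring as well. Rheb, the GTPase that turns mTORC1 on, had 10.59, 10.64 and 10.83 on the double-positive arrays and 9.39, 8.96 and 8.76 on the CD31+ arrays, differing by 1.65. Deptor, an inhibitor that binds mTOR, had 5.03, 5.20 and 4.93 on the double-positive arrays and 5.81, 6.71 and 5.69 on the CD31+ arrays, differing by -1.02. Both passed with the filter (limma adjusted p = 0.00324 for Rheb and 0.0433 for Deptor), and after centring the differences were 0.97 and -1.70. The groups did not overlap in Myc, Rheb or Deptor, nor in Rps3a1 and Eif3c above.

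Large complexes outside cytosolic translation also read higher on the double-positive arrays, with medians below and above that of the cytosolic ribosomal proteins. Of 76 mitochondrial ribosomal protein genes 30 passed the filter with a median difference of 0.85, and 9 were called higher and 0 lower. Of 39 proteasome subunit genes 24 passed with a median of 1.10, and 10 were called higher and 0 lower. Of 82 genes of oxidative phosphorylation 61 passed with a median of 1.30, and 31 were called higher and 0 lower. Of all probe sets kept, 32.9% were called higher and 3.81% lower. A gene can pass the filter through the group where it is high. Over all 76, 39 and 82 genes the medians were 0.43, 0.89 and 1.08, beside 0.95 over the 46 ribosomal protein genes. With the centring as well the counts called higher were 3, 2 and 8, against 12% of all probe sets kept. After centring the medians of the genes that passed the filter were 0.17, 0.42 and 0.62, beside 0.36 for the cytosolic ribosomal proteins. The differences between these groups of genes were not tested.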

How the data were processed

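Per the labels and the methods, RNA was amplified linearly in 2 rounds from 20 ng a sample and hybridized, and GCRMA was used by the authors for normalization. The deposited values are log2 expression per probe set with a floor at 2.39, and 37.4% of probe sets lay within 0.1 of it on all 6 arrays. Versions are not given in the sources used here, and raw intensities were not used. Of 45037 probe sets without 64 controls, 34945 map to 1 gene, 932 to several and 9160 to none.

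Differences were tested with limma 3.58.1 (R 4.3.3, lmFit and eBayes, no filter, no block, Benjamini-Hochberg over all probe sets, 5% FDR). Members and lists were chosen with earlier results of these data known, so lists are given as counts and medians. Named members are Rplp0, Rplp2 and Rpsa, the 8 with the smallest p among those higher, the 4 that were lower, the 4 brightest and 4 dimmest, paralogs and their parents, and genes with a probe set more than 1 away from the brightest. From each list up to 3 genes with the smallest p are named. The filter, centring, quantile normalization, the block, arrays left out, other choices of probe set and other thresholds were alternatives. On simulated data changed by 1 on the log2 scale limma recovered 2% over all probe sets and 4% with the filter. For changes of 2 it recovered 14% and 62%.

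Replicate numbers pair the arrays. The design text calls the samples paired, and deviations of same-numbered arrays correlated at 0.341, 0.475 and 0.418 over 5764 probe sets, those of other arrays between -0.405 and 0.057. Replicates are labelled biological, and with 3 arrays a group their number limits the precision. Python 3.11.15 and matplotlib 3.10.9 drew the figures.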

Additional observations from a re-analysis of the deposited data

How the results depend on the processing

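Over all probe sets limma called 0 ribosomal protein genes in either direction with the replicate block too, as with array weights, trend and robust eBayes, averaged, plain or second brightest probe sets, 1% FDR and without both arrays numbered 2. Counts called higher were 11 with the filter, 25 with the replicate block and the filter, 3 with centring and the filter, 1 with quantile normalization and the filter, 5 with centring, the filter and the block, and 18 with the filter and without both arrays numbered 2. Centring without the filter gave 14 higher and 6 lower, in a fit that also shifts probe sets at the floor. Leaving out each array in turn gave 0 to 26 genes higher, the highest with the filter and without CD31+ replicate 2. The median difference was 0.14 after quantile normalization and 0.20 with the filter as well. When single arrays were left out, the median difference was 0.45 to 1.42. It was 0.64 to 1.59 with the filter, and 0.13 to 0.83 with the filter and centring. Centred on the ribosomal proteins themselves, it was -0.23, and -0.14 with the filter, by construction, with 0 calls.

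Single genes changed sign as follows. After centring, with or without the filter and the block, Rpl35 was at -0.073, Rpl41 at -0.31 and Rps28 at -0.048, and without the filter Rps27 was at -0.67 and Rps4l at -0.55. After quantile normalization, with or without the filter, Rpl35 was at -0.14 and Rpl41 at -0.65. Rpl37 was at 0.31 without both arrays numbered 2. Averaged over probe sets, Rpl41 was at -0.41. At the brightest plain probe set Rpl41 was at -1.36, Rps18 at -0.18, Rpl35 at -0.014, Rps24 at -0.024 and Rps20 at -0.0070, and at the second brightest Rpsa was at -0.016, all but Rpl41 near the floor. With arrays left out in turn, Rpl35 lay between -0.59 and 1.22, Rpl37 between -0.34 and 0.22, Rpl41 between -0.89 and 1.02, Rps18 between -0.31 and 1.49, Rps20 between -0.21 and 1.08, Rps28 between -0.24 and 1.01 and Rps29 between -0.18 and 0.89. The causes were not tested. Combinations of the filter with quantile normalization, with centring and the block, or with arrays left out, and centring on the ribosomal proteins, were chosen after seeing the data.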
